A study of Mus musculus with 2 samples.

Results

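Immunoglobulin-type neural adhesion molecules were followed in ribosome footprints from newborn mouse brain. The 10 genes were Ncam1, Ncam2, L1cam, Chl1, Nrcam, Nfasc, Cntn1, Cntn2, Alcam and Thy1. Their list is by symbol and its rule uses no measured value, although it was drawn up with earlier results of these data known. They make up 10 of the 45578 genes and 54 of the 109463 transcripts in the deposited table. All 10 had a mean count of at least 10, the minimum used for the comparison between libraries, and 16427 genes in all met it.

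The study isolated polysomes, the clusters of ribosomes on one messenger RNA, and sequenced the 25 to 35 nucleotide fragments that the ribosomes protected from RNase I. Both samples came from 1 group, the control brains at postnatal day 5. These animals were heterozygous for a disrupted Smn allele and carried the human SMN2 transgene (Smn+/-; SMN2tg/0) on an FVB background. They are therefore controls without a fully wild-type Smn locus, and both libraries share that genotype. The labels call the samples biological replicates 1 and 2 (n = 2), so the spread printed here is between these 2 samples alone.

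Cell adhesion molecules of this kind carry immunoglobulin domains outside the cell and, in most of them, fibronectin type III domains next to the membrane. They hold growing axons to each other and to the surrounding matrix, and guide bundling, branching and the first synaptic contacts. Ncam1 is modified with polysialic acid in the developing brain, which loosens adhesion. Members of the L1 family bind ankyrins through their cytoplasmic tails. The contactins and Thy1 have no cytoplasmic tail and are held in the membrane by a glycosylphosphatidylinositol anchor.

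Replicate 1 held 1866831 footprints and replicate 2 held 5261878, a ratio of 2.82. A count of 0 would allow up to 1.61 CPM (counts scaled to the library total) in replicate 1 and 0.570 CPM in replicate 2, taken as 3 counts of each total. The tissue label was checked against markers listed for this work. The 6 neuronal markers summed to 4933 and 3880 CPM and the 5 astrocyte markers to 1901 and 1671 CPM in replicates 1 and 2. Of the oligodendrocyte lineage, Mbp, a myelin gene, had 231 and 410 CPM. Endothelial markers gave 215 and 149 CPM and meningeal markers 582 and 511 CPM, while all 5 T lymphocyte markers together had 2 and 11 footprints. In whole brain, fewer cells of a type and less RNA per cell cannot be told apart. Matched RNA levels were not used, and a footprint level is not a translational efficiency.

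The 10 genes together took nearly the same share of the library total in both replicates. They held 8167 footprints in replicate 1 and 23091 in replicate 2. The share was 0.437% (exact 95% interval 0.428 to 0.447%) in the first and 0.439% (0.433 to 0.445%) in the second, averaging 0.438% ± 0.000959 (SD, n = 2). The second interval lay inside the first. This holds for library totals. The scaling factors used below for the comparison of replicates, 0.957 and 1.04, would raise the first share and lower the second. Within the sum, Ncam1 held 32.1% and 28.7% of the members' footprints in replicates 1 and 2, and Cntn1 15.4% and 17.2%. Intervals cover counting error only, because the libraries were amplified by PCR and a footprint is not known to be an independent molecule.

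Levels were compared between genes as density, the CPM per kilobase of a gene's longest annotated coding sequence. The median density of the 10 genes was 133.0 in replicate 1 and 134.3 in replicate 2, a mean of 133.6 ± 0.917 (SD, n = 2). The median of 13317 protein-coding genes with enough counts was 22.0 and 24.6. All 10 genes lay above that median, and 8 of 10 lay at or above percentile 75 of coding genes. The densest member, Ncam1, exceeded the sparsest, Nfasc, 7.34-fold.

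**Figure D1:**
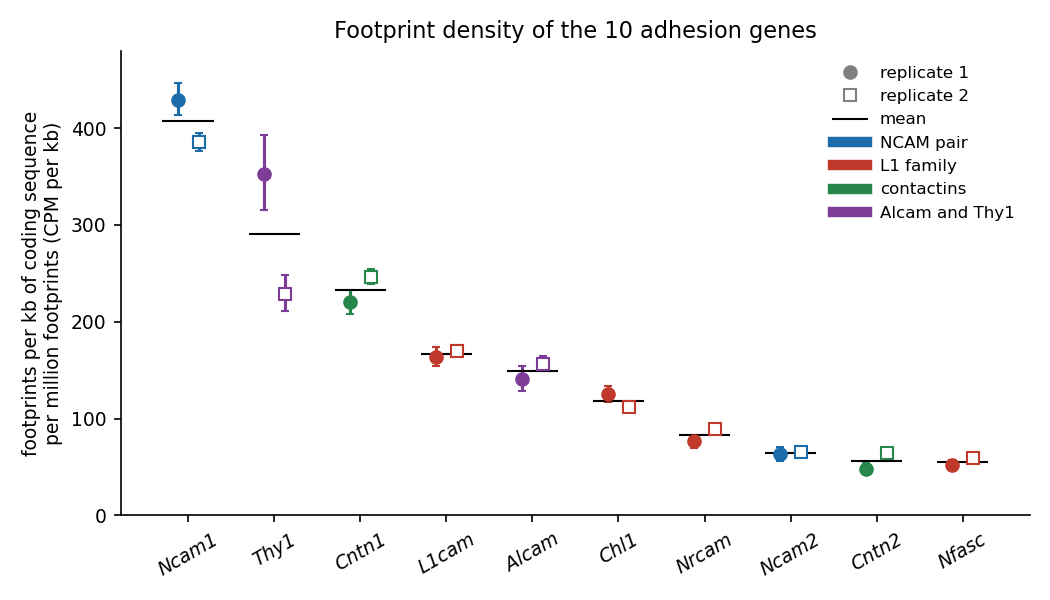
Footprint density of the 10 adhesion genes in CPM per kb of coding sequence, with filled circles for replicate 1, open squares for replicate 2, exact Poisson 95% intervals as bars and the mean as a line. Ncam1 was densest in both replicates (429 and 385), Thy1 had the widest gap (353 and 229), and the genes from Ncam2 to Nfasc lay between 48.2 and 65.5.

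Ncam1 and Ncam2 are the neural cell adhesion molecules proper, which bind like molecules on neighbouring cells. Ncam1 (ENSMUSG00000039542) had 2621 footprints in replicate 1 and 6627 in replicate 2, or 1404 and 1259 CPM. Its density was 429 (413 to 446) and 385 (376 to 395), a mean of 407 ± 31.3 (SD, n = 2) at percentile 97.7 of coding genes. It supplied 32.1% of the members' footprints in replicate 1 and 28.7% in replicate 2, and stood first in both libraries.

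Ncam2 (ENSMUSG00000022762), known from olfactory axons, had 295 and 867 footprints, or 158 and 165 CPM. Its density of 62.9 (55.9 to 70.5) and 65.5 (61.3 to 70.1) averaged 64.2 ± 1.90 (SD, n = 2), at percentile 76.2. The 2 replicates overlapped within their counting intervals. Within a library, Ncam1 was 6.83 times as dense as Ncam2 (95% interval 6.06 to 7.73) in replicate 1 and 5.88 times (5.48 to 6.32) in replicate 2. The mean ratio was 6.36 ± 0.675 (SD, n = 2).

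The L1 family ran in one order, L1cam, Chl1, Nrcam and Nfasc, in both replicates. L1cam (ENSMUSG00000031391), the X-linked founder of the family, which promotes axon growth and bundling, had 1155 and 3380 footprints and 619 and 642 CPM. Its density was 164 (154 to 173) and 170 (164 to 176), averaging 167 ± 4.43 (SD, n = 2). It ranked 4 of 10 in both libraries, whose intervals overlapped.

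Chl1 (ENSMUSG00000030077), the close homologue of L1, had 849 and 2135 footprints and 455 and 406 CPM. Its density was 125 (117 to 134) and 112 (107 to 117), a mean of 119 ± 9.55 (SD, n = 2). L1cam was denser than Chl1 by 1.31-fold (1.19 to 1.43) in replicate 1 and 1.52-fold (1.44 to 1.61) in replicate 2. Chl1 in turn was denser than Nrcam by 1.64-fold (1.47 to 1.83) and 1.26-fold (1.18 to 1.34). Of the 3 steps within the family, L1cam to Chl1 was the narrowest in replicate 1 and the widest in replicate 2, so the steps have no fixed order of size.

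Nrcam (ENSMUSG00000020598) and Nfasc (ENSMUSG00000026442), neurofascin, cluster with ankyrin and sodium channels at nodes of Ranvier and axon initial segments. Nrcam had 537 and 1759 footprints, 288 and 334 CPM, and a density of 76.3 (70.0 to 83.0) and 88.6 (84.6 to 92.9). Nfasc had 389 and 1264 footprints, 208 and 240 CPM, and a density of 51.5 (46.5 to 56.9) and 59.4 (56.2 to 62.8). Both were higher in replicate 2 on this scale, and the Nrcam intervals did not overlap. Nrcam was 1.48 times as dense as Nfasc (1.30 to 1.69) in replicate 1 and 1.49 times (1.39 to 1.61) in replicate 2, the closest pair of values among the 9 ratios computed. L1cam exceeded Nfasc 3.18-fold (2.83 to 3.57) and 2.86-fold (2.68 to 3.05).

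The contactins differed by several-fold. Cntn1 (ENSMUSG00000055022), which forms a complex with Cntnap1 at the axon-glia junction, had 1258 and 3972 footprints and 674 and 755 CPM. Its density was 220 (208 to 233) and 246 (239 to 254), a mean of 233 ± 18.7 (SD, n = 2) at percentile 94.4. Cntn2 (ENSMUSG00000053024), also called TAG-1, marks outgrowing axons and later the juxtaparanode. It had 281 and 1053 footprints, 151 and 200 CPM, and a density of 48.2 (42.7 to 54.2) and 64.1 (60.3 to 68.1). The Cntn1 to Cntn2 ratio was 4.56 (4.01 to 5.21) in replicate 1 and 3.85 (3.59 to 4.12) in replicate 2, a mean of 4.21 ± 0.508 (SD, n = 2). With protein-coding transcripts alone the mean ratio was 12.3, because most Cntn2 footprints were assigned to other transcript classes.

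Alcam and Thy1 stand outside these families. Alcam (ENSMUSG00000022636), which binds itself and CD6, had 460 and 1445 footprints and 246 and 275 CPM. Its density was 141 (128 to 154) and 157 (149 to 165), a mean of 149 ± 11.4 (SD, n = 2), and it ranked 5 of 10 in both libraries. Thy1 (ENSMUSG00000032011), a single-domain protein of neurons and T lymphocytes, had 322 and 589 footprints. At 172 and 112 CPM it had the lowest mean CPM of the 10.

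On a coding sequence of 489 nucleotides, or 163 codons, Thy1 nonetheless had a density of 353 (315 to 393) and 229 (211 to 248). The mean was 291 ± 87.6 (SD, n = 2), second of the 10 and at percentile 96.0 of coding genes. The 2 values did not overlap, and its SD was the largest of the members. Of the T lymphocyte markers, Cd3g and Cd8a had no footprint in either library, Cd3e had 0 and 1, Cd3d 1 and 1, and Cd4 1 and 9.

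Neighbours in the density order were compared by the ranges of their replicates. Of 9 neighbouring pairs, 3 overlapped, namely Thy1 with Cntn1, Ncam2 with Cntn2, and Cntn2 with Nfasc. Cntn1 was denser than Thy1 in replicate 2, and Nfasc denser than Cntn2 in replicate 1, both within overlapping counting intervals. The other 6 pairs kept their order without overlap of their replicate values, and 6 of 10 genes held the same rank in both libraries. Among those pairs, counting intervals overlapped for L1cam with Alcam in replicate 2. In replicate 1 they overlapped for Alcam with Chl1 and for Nrcam with Ncam2. Counts of each gene alone would order them otherwise, since coding length ran from 489 nucleotides in Thy1 to 4044 in Nfasc.

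The table lists counts by transcript. The counting rule is not given, but transcript pairs of equal lengths varied as if a gene's fragments were divided among its transcripts. Ncam1 had 6 annotated transcripts, all protein coding. Ncam1-006, with a coding sequence of 3269 nucleotides that is not a whole number of codons, took 761 and 1824 footprints. Ncam1-001 took 587 and 1485, and Ncam1-002 531 and 1362. The last 2 differ in coding length by 3 nucleotides, but the 3′ untranslated region is 3307 nucleotides in Ncam1-001 and 395 in Ncam1-002.

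The count ratio of Ncam1-001 to Ncam1-002 was 1.11 (95% interval 0.981 to 1.25) and 1.09 (1.01 to 1.17), although the transcript is 1.96 times as long. Ncam1-006 over Ncam1-001 gave 1.30 (1.16 to 1.45) and 1.23 (1.15 to 1.32), where the coding sequences differ 1.28-fold. These pairs, and those that follow, were chosen after their values were seen. The transcripts of a pair share sequence, and how a shared fragment was assigned is not known. The ratios therefore do not measure the level of each transcript, and the intervals cover counting error only. In both Ncam1 pairs the ratio of footprints lay nearer to the ratio of coding lengths than to that of transcript lengths, which was not so of every pair computed.

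The coding Cntn1 transcripts share a coding length of 3063 nucleotides and had 359, 375 and 400 footprints in replicate 1 and 1150, 1215 and 1211 in replicate 2. Their 3′ untranslated regions span 2364, 525 and 2378 nucleotides. Cntn1-001 over Cntn1-002 gave 0.957 (0.826 to 1.11) and 0.947 (0.872 to 1.03), for a transcript 1.42 times as long. Ncam2-002, whose coding sequence is 1.15 times that of Ncam2-001 in a transcript 0.728 times as long, had 1.20 (0.949 to 1.52) and 1.29 (1.12 to 1.48) times the footprints. The 2 Nrcam transcripts, which differ by 210 coding nucleotides, did not differ beyond counting error at 0.996 (0.838 to 1.18) and 0.959 (0.872 to 1.05). Those values lay nearer to their length ratio of 1.03 than to their coding ratio of 1.06, but the intervals include the length ratio in both replicates and the coding ratio in replicate 1. L1cam-001 over L1cam-010 gave 1.16 (0.976 to 1.38) and 1.07 (0.973 to 1.19), where the coding ratio is 1.01 and the length ratio 1.24. It lay nearer to the length ratio in replicate 1 and nearer to the coding ratio in replicate 2.

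Among the pairs computed, Alcam-001 departed furthest from the ratio of coding lengths. It has a coding sequence 1.02 times that of Alcam-004 and a transcript 3.15 times as long. Its annotated 5′ untranslated region is 1609 nucleotides where Alcam-004 has 0, and its 3′ untranslated region 2675 where Alcam-004 has 204. Alcam-001 had 172 and 477 footprints against 92 and 306, ratios of 1.87 (1.44 to 2.44) and 1.56 (1.35 to 1.81). Both intervals lay above the coding ratio and below the length ratio. Where along the transcript these footprints fell was not analysed here.

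Across the coding transcripts of a gene, Spearman's rho of footprints with coding length, in replicates 1 and 2, was 0.943 and 0.943 for Ncam1 (6 transcripts). It was 0.771 and 0.886 for L1cam (6), 0.829 and 0.771 for Nfasc (6), and 0.900 and 1.00 for Alcam (5). With whole transcript length rho was 1.00 and 1.00 for Ncam1, 1.00 and 0.943 for L1cam, 0.657 and 0.943 for Nfasc, and 0.900 and 1.00 for Alcam. It was thus as high as with coding length, or higher, in all but Nfasc in replicate 1, and the ranks do not tell the 2 lengths apart. These describe transcripts that share exons and libraries, and carry no test.

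**Figure D2:**
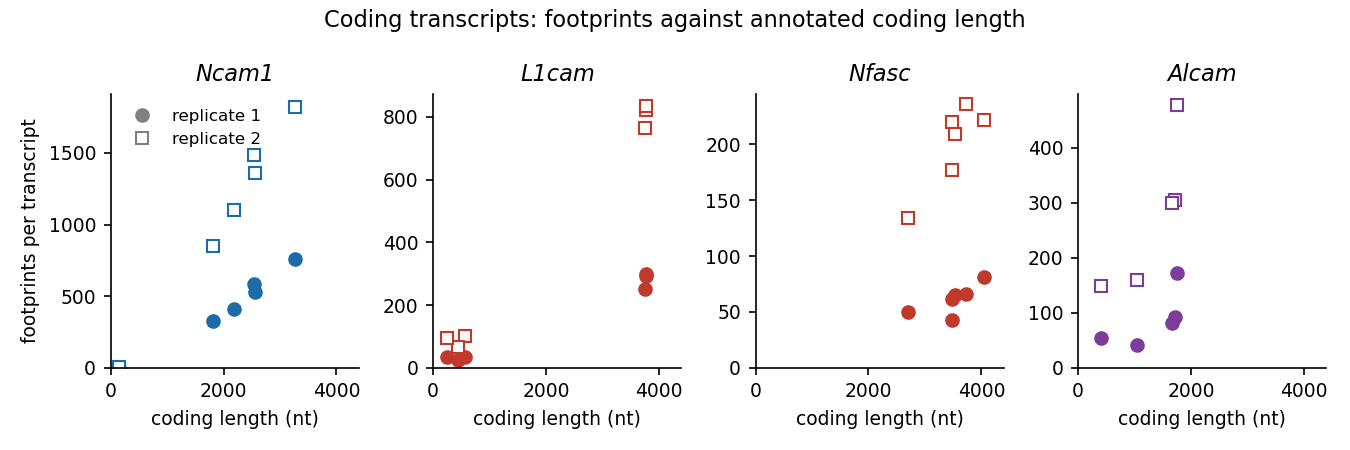
Footprints per coding transcript against annotated coding length in nucleotides for the 4 members with 5 or more coding transcripts, filled circles for replicate 1 and open squares for replicate 2, each panel with its own vertical scale. In Ncam1 the longest coding sequence, Ncam1-006 at 3269 nucleotides, had the most footprints (761 and 1824), and Alcam-001 stood above the other Alcam transcripts of like coding length.

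The footprints of the members fell mainly on protein-coding transcripts, with Cntn2 as the exception. Over the 10 genes, 92.3% ± 0.919 (SD, n = 2) of footprints were on coding transcripts and 6.69% ± 0.774 on retained-intron transcripts, the annotation for spliced RNAs that keep an intron. Over all coding genes tested the shares were 80.2% ± 1.12 and 9.92% ± 0.420. Ncam1, Ncam2, Chl1, Nrcam and Thy1 have only coding transcripts in the table.

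Cntn2 had 161 of 281 footprints in replicate 1 and 578 of 1053 in replicate 2 on 3 retained-intron transcripts, or 57.3% and 54.9%. The mean of 56.1% ± 1.70 (SD, n = 2) stood at percentile 98.8 of coding genes, whose median was 0. Genes with no annotated retained-intron transcript count as 0 in this ranking, so it depends on the annotation as well as on footprints. Coding transcripts held 30.8% ± 0.318, and transcripts annotated for nonsense-mediated decay, the route that removes RNAs with an early stop codon, held 13.1% ± 1.38. Cntn2-001, the full coding transcript, had 67 and 285 footprints. The retained-intron transcripts Cntn2-002 and Cntn2-003 are of like length, at 7334 and 7236 nucleotides against 7177, and had 83 and 284 and 68 and 273. Cntn2-002 over Cntn2-001 gave 1.24 (0.887 to 1.74) and 0.996 (0.842 to 1.18), so these 2 did not differ beyond counting error. Which transcript a shared fragment came from cannot be read from these counts.

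L1cam had 16.9% ± 1.41 of its footprints on 6 retained-intron transcripts, at percentile 80.2 of the same ranking. For Cntn1 the share was 9.91% ± 0.0798, for Alcam 3.83% ± 0.124 and for Nfasc 3.43% ± 0.601 (SD, n = 2). Of the 5 members with retained-intron transcripts, only Cntn2 had most of its footprints on them. Cntn2-002 and Cntn2-003 are about as long as its full coding transcript and share sequence with it. How far its share follows from the transcripts annotated was not tested.

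**Figure D3:**
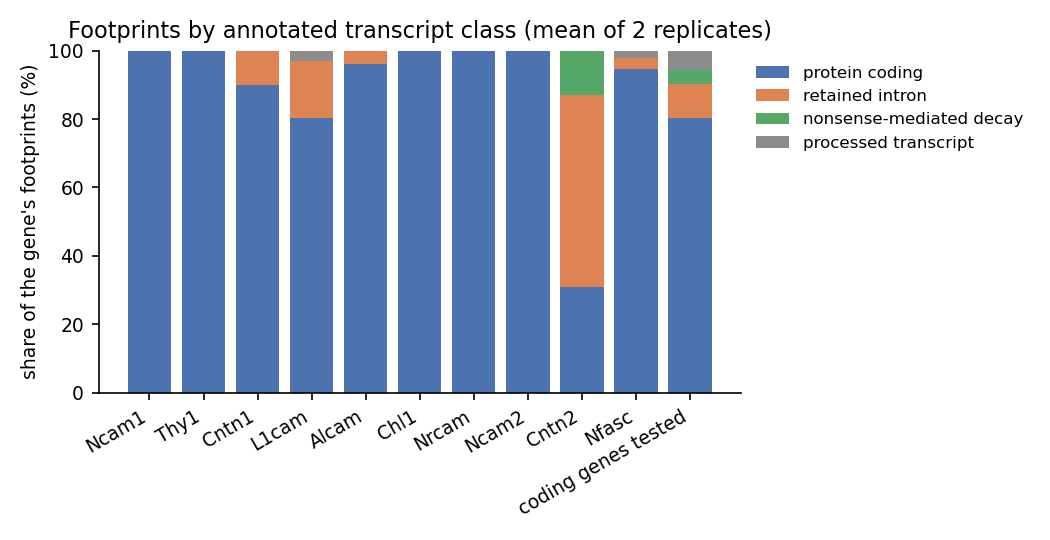
Share of each gene's footprints by annotated transcript class, in percent, as stacked bars of the mean of 2 replicates, with all coding genes tested at the right. Cntn2 had 30.8% on coding and 56.1% on retained-intron transcripts, whereas the other 9 genes had at least 80.2% on coding transcripts.

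The only comparison the design allows is between the 2 replicates, which asks how far a member's level varied between the 2 libraries. With 1 library per sample, differences between brains and between library preparations cannot be told apart. Each gene was tested by a two-sided exact binomial test at the library sizes scaled by TMM (trimmed mean of M values), with Benjamini-Hochberg adjustment over 16427 genes. Log2 ratios are on these scaled sizes unless library totals are named, so they are not the ratios of the CPM values, which use library totals. The test compares 2 libraries with counting noise, not conditions. Of all genes tested, 17.4% were called at an adjusted p under 0.05, with 5.95% higher and 11.5% lower in replicate 2. Of the members, 4 of 10 were called, with 1 higher and 3 lower in replicate 2. All 10 had a mean count of at least 100, and of the 8060 such genes 33.9% were called, so 4 of 10 is near that share. The members lay well above this minimum, from 322 and 589 footprints for Thy1 to 2621 and 6627 for Ncam1. The share called rises with the count, and none was computed for genes matched in count. The median log2 ratio of replicate 2 over replicate 1 was -0.02 for the members and 0.01 for all genes tested. The median absolute log2 ratio was 0.08 against 0.29. The value for all genes includes mean counts down to 10, where counting noise is larger. No median was computed for genes counted as deeply as the members, so these 2 values do not compare reproducibility.

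Thy1 differed most. At 172 and 112 CPM, its log2 ratio at TMM-scaled library sizes was -0.75 (exact binomial test, adjusted p = 1.97e-11). Ncam1 (1404 and 1259 CPM) was lower in replicate 2 at -0.28 (exact binomial test, adjusted p = 4.50e-15). Chl1 (455 and 406 CPM) was lower at -0.29 (exact binomial test, adjusted p = 2.15e-05).

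Cntn2, at 151 and 200 CPM, was the only member called higher, at 0.28 (exact binomial test, adjusted p = 0.0219). On coding transcripts alone, where 18.2% of genes were called, its log2 ratio was 0.33 and it was not called. The other 6 members were not called, with log2 ratios from -0.07 for L1cam to 0.09 for Nrcam. The exact test of edgeR allowed for a biological coefficient of variation of 0.167, estimated from these same 2 libraries taken as 1 group. The differences under test enter that value, so few calls follow from the setup and the test is no independent check. It called 0 of 10 members, with 1 at an unadjusted p under 0.05. Of all 16427 genes, 11 (0.067%) were called and 719 had an unadjusted p under 0.05.

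Direction depended on the scaling for some members. Scaling by library totals adds 0.13 to each log2 ratio and called 19.0% of all genes and 6 of 10 members, which added Cntn1 (0.16) and Nrcam (0.22) as higher in replicate 2. On that scale Ncam1 (-0.16), Chl1 (-0.16) and Thy1 (-0.62) were still lower. Log2 ratios also fell with footprint density across all genes. With that trend removed, 15.4% of genes and 5 of 10 members were called. Thy1 was still lower at -0.50, Chl1 was no longer called at -0.13, and Ncam1 was higher at 0.12 (exact binomial test, adjusted p = 0.00499). Cntn1 (0.31) and L1cam (0.20) were then called higher as well, with Cntn2 (0.27).

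Most neuronal markers were lower in replicate 2. Of the 6, 4 were called lower, with log2 ratios of -0.99 for Tubb3, -0.81 for Stmn2, -0.55 for Snap25 and -0.20 for Syt1, while Map2 (-0.06) and Rbfox3 (-0.05) were not called. Of the oligodendrocyte lineage, Mbp (0.70) was called higher and Sox10 (-0.46) lower, while Mog (0.47) and Pdgfra (-0.02) were not called. Of the 5 astrocyte markers 2 were lower, of the 3 endothelial markers 1 was lower, and of the 3 meningeal markers 2 were lower and 1 higher. Beside these counts, 17.4% of all genes tested were called, and 33.9% of those with a mean count of at least 100. The neuronal markers had a median density of 546, and log2 ratios fell with density across all genes. No marker value is given here with that trend removed. With library totals, 3 of the 6 neuronal markers were called lower, and Syt1 was not. Map2 (0.07) and Rbfox3 (0.08) then had positive log2 ratios. Sox10 and the meningeal marker Col1a2 were not called on that scale. The part of these differences in the values of Thy1, Ncam1, Chl1 and Cntn2 was not tested.

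**Figure D4:**
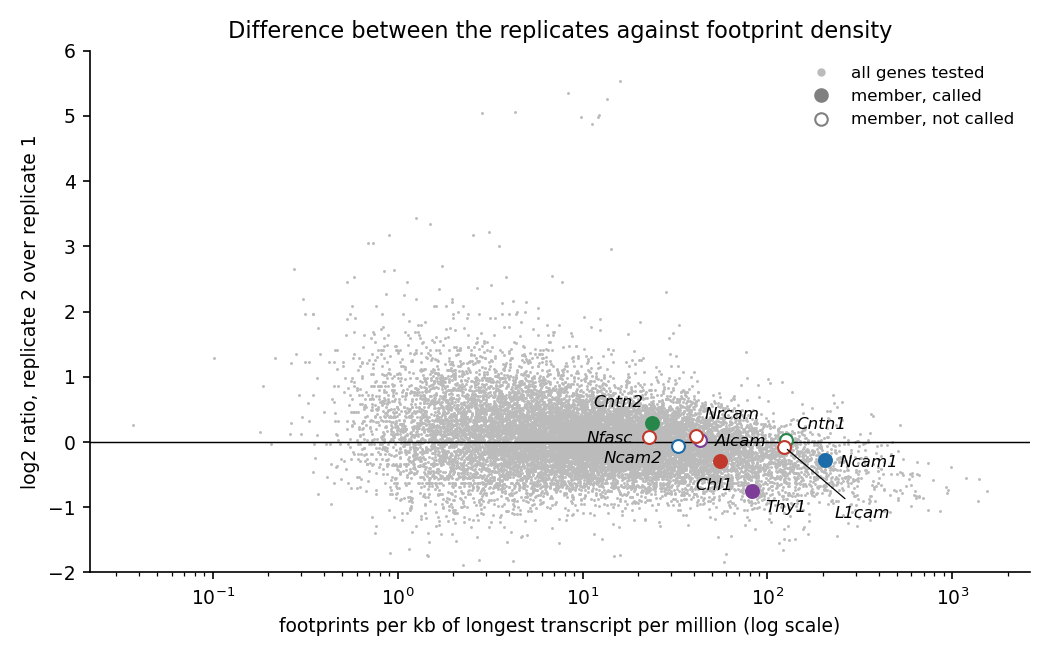
Log2 ratio of replicate 2 over replicate 1 against CPM per kb of longest transcript (log scale) for 16427 genes in grey, with the 10 members in colour, filled where called by the exact binomial test. Thy1 (-0.75) stands lowest of the members and Cntn2 (0.28) highest, and the other 8 lie between -0.29 and 0.09.

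Companion genes were drawn from 5 lists of relatives and partners, 45 genes in all, each of which had enough counts. Of these, 15 were called, 3 higher and 12 lower in replicate 2, with a median log2 ratio of -0.02, beside the 17.4% of all genes called. Where the mean count was 100 or more, 18 of 43 companions and 33.9% of all genes were called. By edgeR's exact test 0 of the 45 were called and 2 had an unadjusted p under 0.05.

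The 4 other contactins were sparse. Their median density was 12.0, and Cntn1 made up 71.6% and 66.8% of the summed density of all 6 contactins in replicates 1 and 2. Cntn6, at 57.9 ± 16.0 CPM (SD, n = 2), and Cntn4, at 43.4 ± 12.8 CPM, were the highest of them. By the exact binomial test 0 of 4 were called and 3 had an unadjusted p under 0.05, while edgeR's exact test called 0, with 0 at an unadjusted p under 0.05. All 4 log2 ratios were positive, with a median of 0.46, and 3 were called higher with library totals.

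The IgLON proteins are short, anchored relatives that modulate neurite growth, and their 5 genes had a median density of 270. Lsamp averaged 318 ± 13.4 CPM (SD, n = 2) and Ntm 291 ± 35.5 CPM. Of the 5, 3 were called lower, among them Lsamp (-0.21) and Iglon5 (-0.54), and 0 higher. With library totals, 1 was higher and 1 lower.

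SynCAM proteins and nectins, which join cells across synapses and junctions, had a median density of 249 over 7 genes. Cadm1 averaged 454 ± 29.3 CPM (SD, n = 2) and Cadm3 431 ± 7.93 CPM. Cadm4, an adhesion protein of myelinating glia and axons, went from 361 to 221 CPM between replicates 1 and 2, a log2 ratio of -0.70 with library totals and -0.83 at TMM-scaled sizes. It was 1 of 3 called lower, and 0 were higher. Scaled by library totals, 2 were lower and 0 higher, and Cadm3 was not called.

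The list of other immunoglobulin adhesion proteins held 15 genes with a median density of 20.1. Bsg, basigin, averaged 603 ± 40.7 CPM (SD, n = 2) and Nptn, neuroplastin, 525 ± 49.6 CPM. On density, Bsg at 516 and Nptn at 440 lay above the 407 of Ncam1. Of the 15, 4 were called lower and 1 higher, and those with a log2 ratio beyond 0.5 in size were the sidekick genes Sdk1 (-0.53) and Sdk2 (-0.64). Scaled by library totals, 2 were higher and 2 lower, and Sdk1 was not called.

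The 14 partners covered ligands, ankyrins, signalling proteins, the enzymes that add polysialic acid, and sheddases. Ptprz1, a receptor phosphatase that binds Cntn1, averaged 931 ± 77.8 CPM (SD, n = 2). Ncan, neurocan, a matrix proteoglycan that binds Ncam1 and L1cam, had 1062 CPM in replicate 1 and 654 in replicate 2, a log2 ratio of -0.70 with library totals and -0.83 at TMM-scaled sizes. Of the 14 partners, 2 were called higher, the ankyrins Ank2 (0.20) and Ank3 (0.21), and 2 lower, Ncan and St8sia2 (-0.35). With library totals, 6 were higher and 1 lower.

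St8sia2 and St8sia4 are the polysialyltransferases that act on Ncam1, and they, with the ankyrins, are named here after their values were seen. St8sia2 was the denser by 3.36-fold in replicate 1 and 2.32-fold in replicate 2. Densities were 123 and 105 for St8sia2 and 36.7 and 45.4 for St8sia4.

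**Figure D5:**
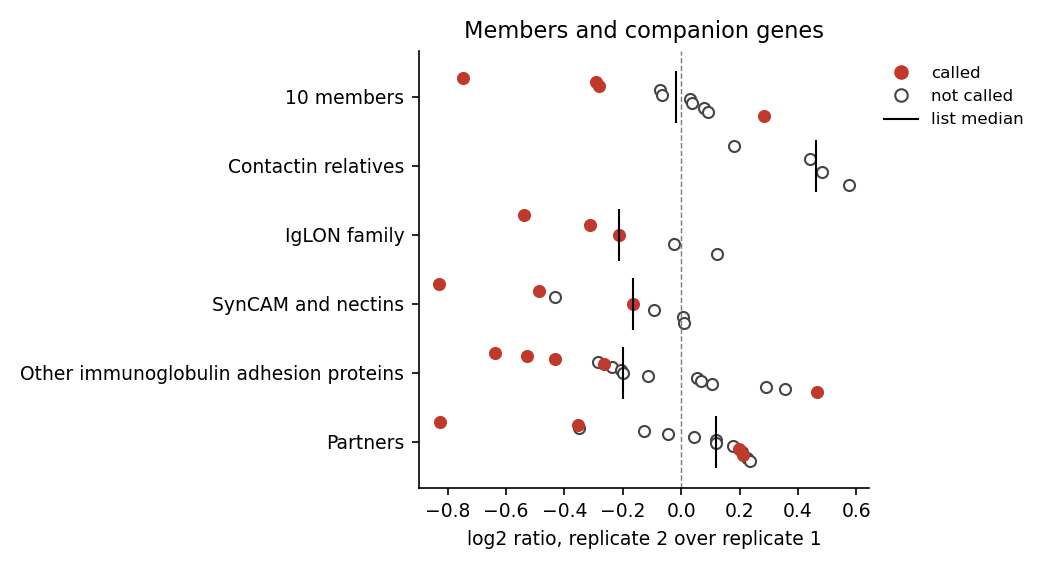
Log2 ratio of replicate 2 over replicate 1 for the 10 members and the 5 companion lists, 1 point per gene, filled where called by the exact binomial test, with the list median as a line. Contactin relatives lay above 0 with a median of 0.46 and 0 called, while the IgLON median was -0.21 with 3 of 5 called lower.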

How the data were processed

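Per the labels' protocols, polysomal fractions of frozen brain lysates were digested with RNase I, and footprints were gel-selected, ligated, circularised and amplified by PCR. The authors deposited whole-number counts per transcript, 1 column per replicate and not normalized, with annotated lengths in nucleotides. The submitters' processing notes name Trimmomatic 0.36, Bowtie2 2.2.6, SAMtools and build GRCm38.p4. The counting rule, the use of strand, the annotation release and the handling of duplicates are not given in the sources used here.

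Counts of a gene's transcripts were summed. In 50 transcript pairs of equal lengths within a gene, the mean squared difference over the sum was 0.910, where double counting gives 0 and independent counts 1. Log2 ratios used edgeR 4.0.16 TMM factors (0.957 and 1.04) and a prior of 0.5 CPM. With 1 group there is no contrast, so edgeR's quasi-likelihood test could not be fitted and the exact binomial test (scipy 1.17.1) was used. It was tested on simulated counts that held only counting noise and set changes. Those counts do not show how the test behaves where libraries vary beyond counting noise. DESeq2 1.42.0 size factors, library totals, other count minimums, gene values, lengths and tests were tried.

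All members are named. Of companion genes, the rule names the 2 with the highest mean CPM per list and each called gene with an absolute log2 ratio of at least 0.5. The members and lists were chosen with earlier results of these data known. Overlapping genes that a RefSeq table of another patch build shows at Ncam1, Chl1 and Nfasc had 0 footprints where the deposited table listed them. Coordinates and sequences were not used here. One marker gene, and the sums and counts that include it, are not reported here.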

Additional observations from a re-analysis of the deposited data

How the results depend on the processing

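The 4 called members were the same with DESeq2 size factors, with a minimum of 1 count and with a mean count of at least 100, where 17.4%, 9.75% and 33.9% of all genes were called. With coding transcripts alone or the highest transcript per gene, 3 of them were called. The exact test of edgeR, whose coefficient of variation came from the same 2 libraries, called 0 of 10 members and 0 of 45 companions. Companion calls were 6 of 45 with the highest transcript per gene, where 9.41% of all genes were called. Log2 ratios changed sign with library totals for L1cam (0.0541) and Ncam2 (0.0601), with the density trend removed for Ncam1 (0.12) and L1cam (0.20), and with the highest transcript for Alcam (-0.0763), Ncam2 (0.0516) and Nfasc (-0.0930). The cause was not tested.

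The members' median density was 146 with a count-weighted coding length, 92.3 with the highest transcript, 49.3 per transcript length and 167 with coding transcripts alone. In the same settings the ratio of Ncam1 to Ncam2 was 7.54 with the count-weighted length and 3.25 with the highest transcript, and that of Cntn1 to Cntn2 was 3.63 with the count-weighted length, 5.33 per transcript length and 12.3 with coding transcripts alone. The share of footprints on the members was 0.344% of highest-transcript footprints and 0.535% of coding-transcript footprints. Ncam1 ranked first in density in each setting except the highest transcript per gene, where it ranked 3 of 10 after Thy1 and Chl1. That setting keeps the count of 1 transcript per gene. Thy1 and Chl1 have only 1 annotated transcript and keep all their footprints, while Ncam1 has 6.

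No paired analysis was possible because there is only 1 group. With 1 sample left, densities and shares are that sample's values and no test is possible. With 2 libraries of 1 genotype, the data describe how these libraries differ and hold no comparison of conditions. Thin counts, such as 74 footprints for St8sia4 in replicate 1, limit the precision of sparse genes.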
